A study of Homo sapiens with 12 samples.

Results

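COMPASS complexes are the main writers of methylation on lysine 4 of histone H3 (H3K4), a mark of promoters and enhancers. Each complex pairs 1 SET-domain enzyme of the KMT2 or SETD1 family with a shared core of WDR5, RBBP5, ASH2L and DPY30, which binds the enzyme and raises its activity. Further subunits belong to some complexes only: MEN1 tethers the complex built on KMT2A to chromatin, and CXXC1 brings the SETD1A and SETD1B complexes to unmethylated CpG. PRMT6 is an arginine methyltransferase that places a mark on arginine 2 of histone H3, next to lysine 4, and this mark is known to hinder the binding of WDR5-containing complexes to the histone tail. The genes described here are 10 COMPASS subunits chosen by name: the enzymes KMT2A, KMT2D, SETD1A and SETD1B, the core subunits WDR5, RBBP5, ASH2L and DPY30, and MEN1 and CXXC1. All 10 were found by symbol among the 56638 symbols of the count table, and all 10 were among the 19130 genes tested.

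Messenger RNA was sequenced from human NT2/D1 cells, an established teratocarcinoma-derived line of pluripotent character that can be driven toward neural fates by retinoic acid. PRMT6 knockout cells (KO, deletion made with CRISPR/Cas9) and CRISPR/Cas9 control cells (CT) were each grown untreated or for 3 days in all-trans retinoic acid (ATRA) at 1 µM, with 3 libraries in each of the 4 groups. All 6 knockout titles carry the same name, KO-2, and whether the line is 1 clone, or the replicates were separate cultures, is not stated, so p-values measure only the spread between these libraries. Totals ran from 25469881 to 60394918 counts per library, and every subunit had at least 280 counts in every library. Levels are CPM, the gene's count relative to the TMM-scaled library size, given as replicates 1, 2 and 3, and changes are log2 fold changes with their standard errors from edgeR's quasi-likelihood test, called at an adjusted p under 0.05.

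PRMT6 itself had 0 or 1 count in each untreated KO library and 0 to 2 counts in each KO library with ATRA. It stood at 22.4, 1.94 and 8.94 CPM in untreated CT cells and at 29.9, 15.9 and 26.8 CPM in CT cells with ATRA. Of 12 pluripotency markers, 11 reached 1 CPM in all 3 libraries of each group. Their summed level was 5380 to 8720 CPM in untreated KO cells against 5530 to 8230 CPM in untreated CT cells, and 2520 to 3700 CPM in KO cells with ATRA against 3760 to 5140 CPM in CT cells with ATRA, without overlap. Untreated, SOX2, L1TD1 and LIN28B were lower in each KO library than in each CT library, and the other markers overlapped. SOX2 had 50.7, 47.3 and 78.9 CPM in untreated KO cells against 156, 279 and 183 CPM in untreated CT cells. With ATRA, LIN28A, PODXL, SOX2 and LIN28B were lower in each KO library than in each CT library. NANOG went the other way, at 25.8, 42.2 and 25.3 CPM in KO cells against 2.83, 18.1 and 8.35 CPM in CT cells. The other markers overlapped with ATRA, so under neither treatment does the sum stand for each marker. The part of these marker differences in the subunit values was not tested. The summed level of 4 endothelial or blood markers was 1.11 to 2.11 CPM in untreated KO cells against 0.687 to 3.5 CPM in untreated CT cells, and 2.29 to 11.7 CPM in KO cells with ATRA against 2.24 to 17.6 CPM in CT cells with ATRA. Of these 4, CDH5 reached 1 CPM in all libraries of each ATRA group, and PECAM1 was at 0 in every library, as was HBB outside KO cells with ATRA. The summed level of 10 fibroblast or mesenchymal markers was 2250 to 13900 CPM in untreated KO cells against 449 to 543 CPM in untreated CT cells, and 2260 to 12400 CPM in KO cells with ATRA against 270 to 1520 CPM in CT cells with ATRA. Its lowest KO values came from untreated KO 3 and KO ATRA 2. The summed level of 7 neuron markers was 370 to 408 CPM in untreated KO cells against 164 to 438 CPM in untreated CT cells. With ATRA it was 405 to 442 CPM against 403 to 575 CPM. Its members went opposite ways. NEFL, NEFM and SNAP25 were higher, and DCX and STMN2 lower, in each KO library than in each CT library of the same treatment. TUBB3 with ATRA and ELAVL3 untreated were also lower without overlap. Untreated KO 1 and 2, and KO ATRA 1 and 3, lay much closer together than other replicates: the chi-square of their counts was 9.01 and 1.91 per gene, against 78.1 to 416 for the other within-group pairs. These values exceed sampling noise, but that does not show the pairs to be independent replicates. Whether they are repeat libraries of 1 culture was not tested. The main fit counts each library as a replicate, so its p-values and the SDs below may understate the spread. With these pairs summed to 1 library each, called genes went from 6676 to 1072 untreated and from 1437 to 71 with ATRA. Further results with the pairs summed are given below. In bulk RNA, fewer cells of a type and less RNA per cell cannot be told apart.

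Promoter sequence is shown for the called subunits that have an entry in the RefSeq promoter table and, as an enzyme beside them, for KMT2D, because CXXC1 reads CpG and COMPASS works at CpG-rich starts. RefSeq (GRCh38.p14) gave promoters for 7 of the 10 subunits, from 250 bases before to 50 after the start. Each runs 5′ to 3′ on the gene's strand, with every CpG in capitals.
RBBP5, chr1:205121929-205122228, minus strand: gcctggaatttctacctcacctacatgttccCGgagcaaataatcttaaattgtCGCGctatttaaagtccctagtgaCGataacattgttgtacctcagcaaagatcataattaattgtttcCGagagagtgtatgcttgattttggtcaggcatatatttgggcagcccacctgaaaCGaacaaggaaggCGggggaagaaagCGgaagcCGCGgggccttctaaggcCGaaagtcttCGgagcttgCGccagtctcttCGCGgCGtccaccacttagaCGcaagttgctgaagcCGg
MEN1, chr11:64810502-64810801, minus strand: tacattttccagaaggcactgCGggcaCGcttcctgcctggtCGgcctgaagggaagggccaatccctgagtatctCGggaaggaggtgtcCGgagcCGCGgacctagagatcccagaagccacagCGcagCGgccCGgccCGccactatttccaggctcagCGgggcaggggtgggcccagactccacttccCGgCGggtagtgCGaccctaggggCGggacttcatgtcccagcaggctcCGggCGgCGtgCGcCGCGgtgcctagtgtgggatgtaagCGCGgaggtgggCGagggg
CXXC1, chr18:50287643-50287942, minus strand: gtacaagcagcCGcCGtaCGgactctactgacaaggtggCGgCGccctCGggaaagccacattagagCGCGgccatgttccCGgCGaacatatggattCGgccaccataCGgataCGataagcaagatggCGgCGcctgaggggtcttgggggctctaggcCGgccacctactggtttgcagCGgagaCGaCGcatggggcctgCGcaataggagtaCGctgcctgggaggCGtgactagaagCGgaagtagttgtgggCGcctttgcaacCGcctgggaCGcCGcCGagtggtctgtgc
KMT2D, chr12:49060745-49061044, minus strand: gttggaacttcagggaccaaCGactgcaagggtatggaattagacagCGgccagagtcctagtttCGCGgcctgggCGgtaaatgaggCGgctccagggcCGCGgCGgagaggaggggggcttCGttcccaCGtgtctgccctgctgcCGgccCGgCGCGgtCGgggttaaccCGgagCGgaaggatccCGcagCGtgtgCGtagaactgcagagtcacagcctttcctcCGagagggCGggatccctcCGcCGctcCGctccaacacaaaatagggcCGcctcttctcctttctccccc

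RBBP5 has 18 CpG in this window, a count that 44.5% of the 35116 promoters in the table reach. MEN1 has 25 at the first of its 2 listed starts (reached by 32%), CXXC1 has 28 (26.2%) and KMT2D has 27 (28.2%), while KMT2A, not printed, has 36 (12.7%). The median over all promoters was 14 CpG and 96% hold at least 1. SETD1A, not printed, has 30 (22.4%), and WDR5 has 6, 16, 31 and 45 at its 4 listed starts (reached by 66.3%, 47.5%, 20.7% and 3.48%), the first of them below the median. The motif searched was CG, which reads the same on both strands, and these counts describe the letters only.

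The subunits differed widely in mRNA level. Per length of the gene as the count table gives it, over the 12 libraries, WDR5, the core subunit that binds the histone tail and the enzyme, had the highest median level at 43.2 RPKM, with a range of 23.4 to 53.3. MEN1 followed at 24.3 RPKM. SETD1A, ASH2L, CXXC1 and KMT2D had median levels of 14.6, 13.9, 12.6 and 10.7 RPKM, and DPY30, SETD1B and RBBP5 had 9.87, 9.28 and 8.04 RPKM. Each of these 9 had a range over libraries that overlapped that of its neighbours in this order, so the order is not firm. KMT2A was lowest at 1.54 RPKM, with a range of 0.795 to 2.21 that lay below the RBBP5 range and met only the lowest SETD1B library, at 1.63. Its length in the table, 43906 bases, is far above its longest GENCODE transcript of 16725 bases, and with that length its median would be 4.04 RPKM with a range of 2.09 to 5.8, which overlaps the RBBP5 range of 4.3 to 12.1 on the same basis. Longest transcript lengths also move ASH2L, CXXC1 and DPY30 to medians of 27.6, 21.2 and 17.8 RPKM, above SETD1A at 15.7.

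**Figure D1:**
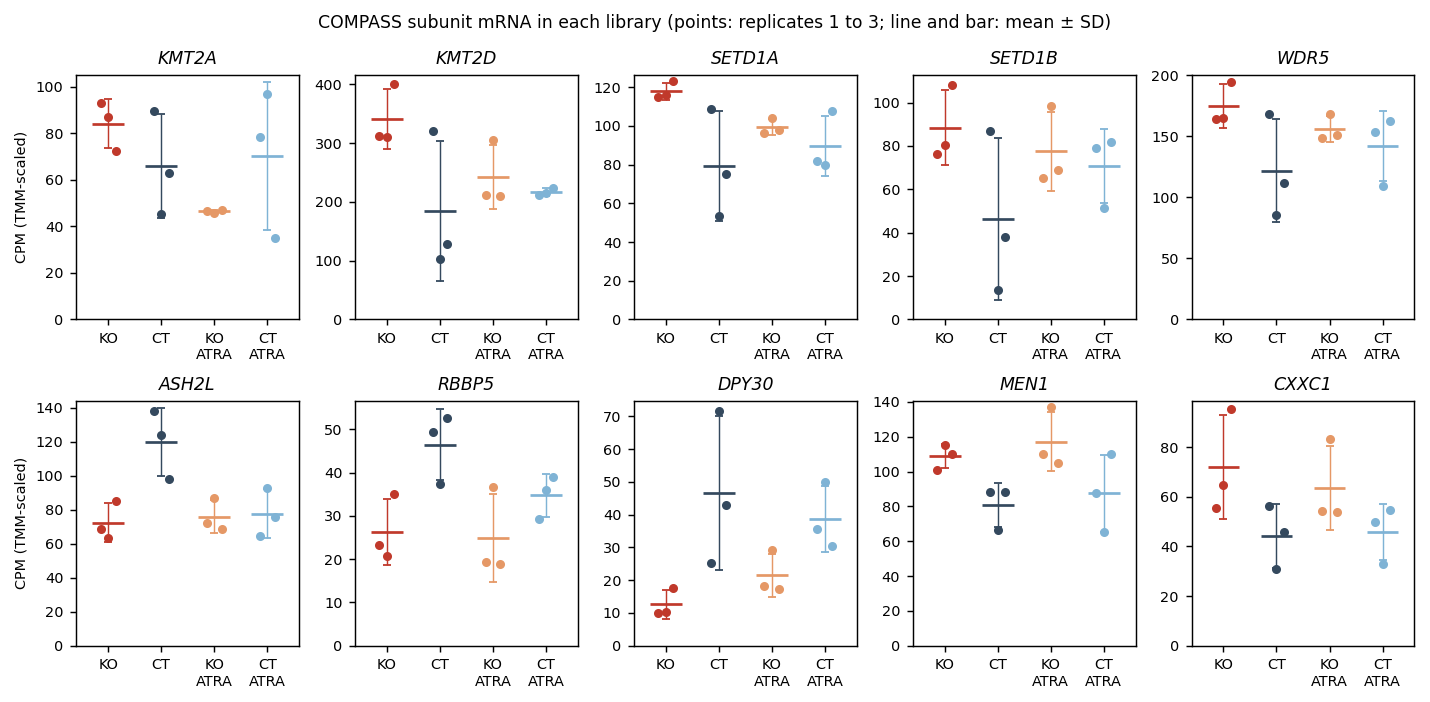
CPM of each subunit in each library (vertical axes from 0, scaled per gene), KO left of CT, untreated left of ATRA; points are replicates 1 to 3, the line is the mean and the bar its SD. DPY30 lies at 9.84 to 17.7 CPM in untreated KO cells and at 25.1 to 71.6 CPM in untreated CT cells, and SETD1B spreads from 13.6 to 86.8 CPM within untreated CT cells.

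Knockout was first compared with control in untreated cells, which asks whether the loss of PRMT6 comes with a change in the machinery that writes the opposing mark. Among the 10 subunits 2 fell and 0 rose, against 34.9% of all tested genes called in either direction (21.9% lower, 13% higher). Both are core subunits, DPY30 and ASH2L. A count of 2 in 10 is not above the background. The median log2 fold change was 0.47 over the subunits and -0.11 over all tested genes. It was 0.29 over tested genes with transcripts above 58% GC, where most of the subunits lie, as described below.

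DPY30, the small subunit whose dimer docks on ASH2L and helps the complex reach full methylation, stood at 9.84, 10.3 and 17.7 CPM in untreated KO cells against 25.1, 71.6 and 42.9 CPM in untreated CT cells. The groups did not overlap, and untreated CT 2 was far above the other CT libraries. The log2 fold change was -1.89 ± 0.39 (edgeR adjusted p = 0.00618), a level 3.7-fold lower. With the near-identical libraries summed it was -1.74 with an adjusted p of 0.0538, so this call rests on counting each of those libraries, and 5.42% of all tested genes were called under that setting.

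ASH2L, which joins RBBP5 in holding the SET domain in its active form, stood at 68.6, 63.6 and 85.3 CPM in untreated KO cells against 138, 124 and 97.9 CPM in untreated CT cells. All 3 KO libraries were below all 3 CT libraries. The log2 fold change was -0.73 ± 0.21 (edgeR adjusted p = 0.0216). Leaving out untreated KO 1 or KO 2 ended this call, with values of -0.68 and -0.64, and summing the near-identical libraries gave -0.66 with an adjusted p of 0.121.

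RBBP5, the core subunit that contacts the enzyme and the nucleosome, stood at 23.3, 20.7 and 35 CPM in untreated KO cells against 49.5, 37.3 and 52.7 CPM in untreated CT cells. These groups did not overlap either, but the log2 fold change of -0.82 ± 0.30 missed the threshold (edgeR adjusted p = 0.0511). WDR5, by contrast with its 3 partners, had a positive value: 164, 165 and 195 CPM in untreated KO cells against 168, 85.5 and 112 CPM in untreated CT cells, a log2 fold change of 0.52 ± 0.25 (edgeR adjusted p = 0.117). One CT library, untreated CT 1, stood within the KO range.

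The 4 enzymes all had positive values. EdgeR called 0 of them, with KMT2D and SETD1A at an unadjusted p under 0.05, as were 9051 of all 19130 tested genes. DESeq2 called those 2 and limma-voom KMT2D, against 7831 and 6440 genes over the table. KMT2D, the enzyme of enhancer monomethylation, stood at 312, 310 and 400 CPM in untreated KO cells against 320, 102 and 129 CPM in untreated CT cells (log2 fold change 0.89 ± 0.35, edgeR adjusted p = 0.0667). SETD1B, which with SETD1A carries out much of promoter trimethylation, stood at 76.5, 80.6 and 108 CPM in untreated KO cells against 86.8, 13.6 and 38 CPM in untreated CT cells (log2 fold change 0.94 ± 0.48, edgeR adjusted p = 0.142). In both genes untreated CT 1 was level with the KO libraries and untreated CT 2 was lowest.

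SETD1A had 115, 116 and 123 CPM in untreated KO cells against 109, 53.2 and 75.3 CPM in untreated CT cells, with no overlap but with untreated CT 1 just under the KO libraries (log2 fold change 0.57 ± 0.24, edgeR adjusted p = 0.0805). KMT2A, the founding member of the family and a regulator of HOX genes, had 93.1, 87 and 72.4 CPM in untreated KO cells against 89.7, 45.2 and 62.8 CPM in untreated CT cells (log2 fold change 0.35 ± 0.33, edgeR adjusted p = 0.419). Summed over the 4 enzymes, CPM came to 596, 593 and 704 in untreated KO cells against 606, 214 and 306 in untreated CT cells. Untreated CT 1 lay within the KO range. Without untreated CT 1, 5 subunits were called higher, namely KMT2D (1.56), SETD1B (1.78), SETD1A (0.88), WDR5 (0.83) and CXXC1 (0.92), and DPY30 and ASH2L stayed called lower. Over the table, 42.8% of all tested genes were called under that setting, 3512 higher and 4941 lower.

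MEN1, the tether of the KMT2A complex, had 101, 115 and 110 CPM in untreated KO cells against 88, 66.3 and 88.3 CPM in untreated CT cells, without overlap (log2 fold change 0.43 ± 0.22, edgeR adjusted p = 0.143). CXXC1, the CpG-binding subunit, had 55.5, 64.9 and 95.4 CPM in untreated KO cells against 56.2, 30.7 and 45.7 CPM in untreated CT cells (log2 fold change 0.70 ± 0.30, edgeR adjusted p = 0.0883). Its CT library 1 was level with KO library 1. In all, the libraries of the groups did not overlap for 5 of the 10 subunits, against 47.9% of all tested genes.

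With ATRA, edgeR called 0 of the 10 subunits between KO and CT cells, against 7.51% of all tested genes. At an unadjusted p under 0.05 it was 1 of 10, against 5376 of all 19130 tested genes. DESeq2 and limma-voom also called 0 of 10, against 2964 and 1015 genes over the table. DPY30 again had the most negative value, with 18.3, 29.1 and 17.2 CPM in KO cells with ATRA against 35.7, 50 and 30.5 CPM in CT cells with ATRA. All 3 KO libraries were below all 3 CT libraries, and the log2 fold change was -0.85 ± 0.38 (edgeR adjusted p = 0.17). It was 1 subunit of 10 without overlap, against 34.6% of all tested genes.

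ASH2L showed nearly the same level in both genotypes with ATRA, 72.4, 86.7 and 68.5 CPM in KO cells against 64.6, 93 and 75.6 CPM in CT cells. The log2 fold change was -0.03 ± 0.21. RBBP5 had 19.3, 36.8 and 18.8 CPM in KO cells with ATRA against 29.4, 35.9 and 39.1 CPM in CT cells with ATRA, where KO ATRA 2 lay among the CT libraries (log2 fold change -0.48 ± 0.30, edgeR adjusted p = 0.317). KMT2A had 46.5, 45.8 and 46.9 CPM in KO cells with ATRA, a very narrow range, against 78.3, 97 and 34.9 CPM in CT cells with ATRA (log2 fold change -0.59 ± 0.33, edgeR adjusted p = 0.264). KMT2D, SETD1A, SETD1B and WDR5 had log2 fold changes between 0.13 and 0.16 with ATRA, each less than its standard error.

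Averaging the genotype difference over both treatments uses all 12 libraries for 1 value per gene. Here 2 subunits fell (DPY30 and RBBP5) and 2 rose (MEN1 and CXXC1), 4 of 10 against 43.9% of all tested genes. The share is near the background. DPY30 averaged 17.1 ± 6.98 CPM in KO cells and 42.6 ± 16.7 CPM in CT cells (SD, n = 6 each), a log2 fold change of -1.37 ± 0.27 (edgeR adjusted p = 0.00266). It was called under all 24 other settings tried, with values from -1.66 to -1.03.

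RBBP5 averaged 25.6 ± 8.11 CPM in KO cells and 40.7 ± 8.79 CPM in CT cells (SD, n = 6 each), a log2 fold change of -0.65 ± 0.21 (edgeR adjusted p = 0.0264). MEN1 averaged 113 ± 12.5 CPM in KO cells and 84.2 ± 16.6 CPM in CT cells (SD, n = 6 each), a log2 fold change of 0.42 ± 0.16 (edgeR adjusted p = 0.0416). CXXC1 averaged 67.8 ± 17.6 CPM in KO cells and 45 ± 10.9 CPM in CT cells (SD, n = 6 each), a log2 fold change of 0.59 ± 0.21 (edgeR adjusted p = 0.0414). The KO and CT libraries of each of these genes overlapped, as they did for all 10 subunits against 14.8% of all tested genes without overlap. These 3 calls were held by 14, 7 and 9 of the 24 other settings, in the order RBBP5, MEN1, CXXC1. The RBBP5 call ended without any 1 of KO ATRA 1, KO ATRA 3, CT ATRA 3, untreated KO 1, untreated KO 2 or untreated CT 3, with values of -0.61 to -0.56. The MEN1 call held without CT ATRA 3 or untreated CT 1 and ended without any of the other 10 libraries (0.34 to 0.47), and the CXXC1 call held without CT ATRA 3, untreated KO 1 or untreated CT 1 and ended without any of the other 9 (0.46 to 0.65). ASH2L missed the threshold in this average (log2 fold change -0.38 ± 0.15, edgeR adjusted p = 0.0567).

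**Figure D2:**
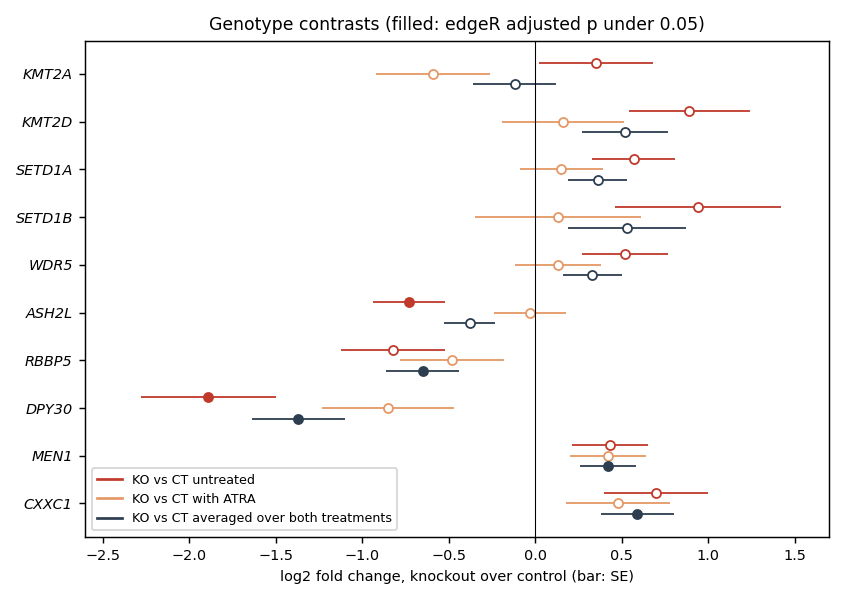
Log2 fold change of each subunit, knockout over control, with its standard error as a bar, for untreated cells, cells with ATRA and their average; filled points passed an edgeR adjusted p under 0.05. DPY30 and RBBP5 lie left of 0 in each comparison, and the enzymes, WDR5, MEN1 and CXXC1 lie right of 0 in untreated cells, where 0 of these 7 passed.

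The 4 subunits with negative values in the average have transcripts of low GC content: RBBP5 43.9%, DPY30 46%, and ASH2L and KMT2A 46.8% each. The 6 with positive values are GC-rich, from 58.1% for WDR5 to 62.4% for SETD1A. In untreated cells KMT2A had a positive value, 0.35 as fitted and 0.49 with the GC trend of each library removed. All tested genes showed the same tilt: those under 48% GC had a median log2 fold change of -0.69 and those over 58% GC one of 0.18 in the average. Across genes, the rank correlation of a library's deviation with GC content was 0.13 to 0.488 in the 6 KO libraries and -0.393 to -0.22 in the CT libraries other than CT ATRA 3, which had 0.0953.

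With the GC trend of each library removed, DPY30 remained the only subunit called. Its log2 fold change was -1.68 ± 0.41 in untreated cells (edgeR adjusted p = 0.0215) and -1.21 ± 0.29 in the average (edgeR adjusted p = 0.00953). RBBP5 moved to -0.20 ± 0.22 in the average, with an edgeR adjusted p of 0.517. MEN1 moved to 0.20 ± 0.14 (edgeR adjusted p = 0.317) and CXXC1 to 0.34 ± 0.20 (edgeR adjusted p = 0.218), while ASH2L in untreated cells kept most of its value at -0.62 ± 0.21 but missed the threshold (edgeR adjusted p = 0.0663). Under this setting 16.5% of all tested genes were called in untreated cells, 7.04% with ATRA and 28.8% in the average. The median over the subunits was then 0.18 in untreated cells and 0.10 in the average, against -0.04 and -0.03 over all tested genes.

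**Figure D3:**
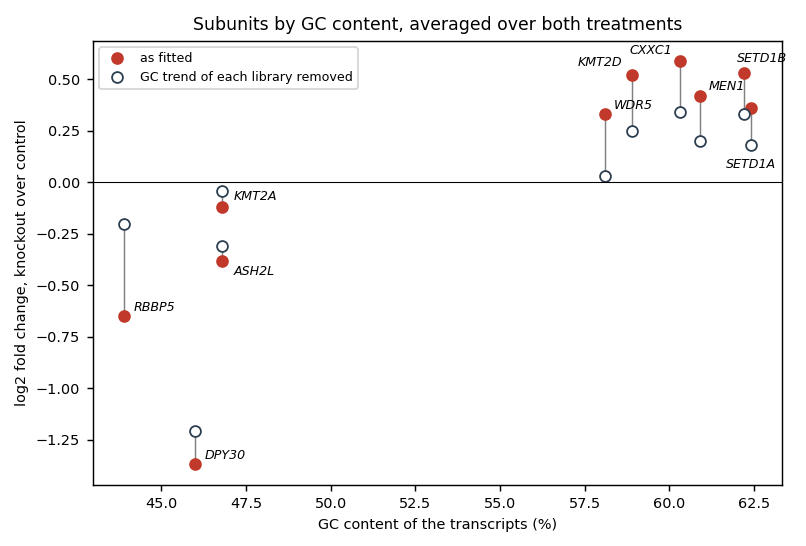
Averaged log2 fold change, knockout over control, of each subunit against the GC content of its transcripts; filled points are as fitted and open points have the GC trend of each library removed. DPY30 stays near its value (-1.37 and -1.21), and RBBP5 (-0.65 and -0.20), MEN1 (0.42 and 0.20) and CXXC1 (0.59 and 0.34) move toward 0.

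The summed level of the fibroblast markers given above was also higher in KO cells, least so in untreated KO 3 and KO ATRA 2. DPY30 was highest among the KO libraries of each treatment in those same libraries, at 17.7 and 29.1 CPM. So were RBBP5, ASH2L, WDR5, KMT2D, SETD1A, SETD1B and CXXC1, of either sign of change, and the CPM summed over all 10 subunits, at 1240 and 1090. KMT2A was lowest in both, and MEN1 was highest only in KO ATRA 2. Of the 10 markers, 7 reached 1 CPM in all untreated KO libraries against 6 in untreated CT cells, and 8 in KO cells with ATRA against 7 in CT cells with ATRA, and none was at 0 throughout a group. COL3A1 made up much of the KO sum, at 10600, 10900 and 1320 CPM in untreated KO cells. PDGFRA went the other way, lower in each KO library than in each CT library of the same treatment. THY1 was lower in KO cells with ATRA, at 109, 101 and 110 CPM against 125, 122 and 178 CPM in CT cells, and overlapped untreated. The part of these markers in the subunit changes was not tested. Without both libraries, DPY30 (-1.66), RBBP5 (-0.97) and ASH2L (-0.50) were called lower in the average, and MEN1 (0.36) and CXXC1 (0.34) were not called. Over the table, 35.5% of all tested genes were called under that setting, 2690 higher and 4310 lower.

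Reads of DPY30 may be shared with MEMO1, whose exons overlap it on the same strand in GENCODE v44. MEMO1, singled out after its values were seen, had 1.87 ± 0.203 CPM in untreated KO cells and 2.44 ± 0.573 CPM in untreated CT cells (SD, n = 3 each), well under DPY30 in every group. With ATRA it had 2.34 ± 0.249 CPM in KO cells and 4.13 ± 0.488 CPM in CT cells (SD, n = 3 each). These did not overlap (log2 fold change -0.82 ± 0.29, edgeR adjusted p = 0.0952). In the average MEMO1 was called lower, as DPY30 was, at -0.60 ± 0.21 (edgeR adjusted p = 0.0318). The part of shared reads in the DPY30 values was not tested. ASH2L lies opposite STAR, and no strand setting of the counting is stated. STAR had 12.2 ± 3.41 CPM in untreated KO cells and 28.5 ± 9.01 CPM in untreated CT cells (SD, n = 3 each). With ATRA STAR had 20, 13.2 and 20.7 CPM in KO cells against 22.3, 24.4 and 24.3 CPM in CT cells, without overlap. The ASH2L log2 fold change with ATRA was -0.03. The part of reads from STAR in the ASH2L values was not tested. The ASH2L pseudogene ASH2LP1 summed to 1 count over the KO libraries and 0 over the CT libraries, and CXXC1P1 had 0 counts throughout, while WDR5B, a near relative of WDR5, averaged 2.13 ± 1.13 CPM in KO cells and 3.75 ± 1.11 CPM in CT cells (SD, n = 6 each). The treatment of multiply matching reads is not stated.

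Ratios within the core were set side by side, since its 4 subunits sit together in every complex. Per length, DPY30 mRNA stood to WDR5 mRNA at 0.0802, 0.0831 and 0.121 in untreated KO cells against 0.199, 1.12 and 0.511 in untreated CT cells. With ATRA this ratio was 0.164, 0.231 and 0.152 in KO cells against 0.31, 0.609 and 0.25 in CT cells. KO libraries were below CT libraries under both treatments.

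RBBP5 stood to WDR5 at 0.118, 0.104 and 0.149 in untreated KO cells against 0.244, 0.362 and 0.391 in untreated CT cells, again without overlap. With ATRA it was 0.108, 0.182 and 0.104 in KO cells against 0.159, 0.273 and 0.2 in CT cells, which overlapped. ASH2L to WDR5 was 0.265, 0.243 and 0.276 in untreated KO cells against 0.516, 0.916 and 0.553 in untreated CT cells. With ATRA the ASH2L ratio was 0.308, 0.326 and 0.287 in KO cells against 0.266, 0.537 and 0.293 in CT cells, which overlapped. No test was run on these ratios, and WDR5 is richer in GC than its 3 partners. Summed over the core, CPM came to 265, 260 and 333 in untreated KO cells against 381, 319 and 305 in untreated CT cells.

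ATRA was then compared with no treatment within each genotype. In CT cells edgeR called 0 of 10 subunits, against 0.115% of all tested genes, and in KO cells also 0 of 10, against 0.0314%. At an unadjusted p under 0.05 it was 1 of 10 subunits in each genotype. Over all 19130 tested genes it was 3961 in CT cells and 2233 in KO cells. DESeq2 and limma-voom called 0 of 10 in both, against 1621 and 30 genes in CT cells and 561 and 0 in KO cells. ASH2L had the most negative value in CT cells: 64.6, 93 and 75.6 CPM with ATRA against 138, 124 and 97.9 CPM untreated, without overlap (log2 fold change -0.63 ± 0.21, edgeR adjusted p = 0.134).

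In KO cells ASH2L had a log2 fold change of 0.07 ± 0.21 with ATRA. The most negative value there was that of KMT2A, with 46.5, 45.8 and 46.9 CPM with ATRA against 93.1, 87 and 72.4 CPM untreated, a log2 fold change of -0.86 ± 0.34 (edgeR adjusted p = 0.331). KMT2D and SETD1A were also lower with ATRA in every KO library, at -0.49 ± 0.35 and -0.24 ± 0.24, so that 3 of 10 subunits had no overlap in KO cells against 31.9% of all tested genes. In CT cells it was 1 of 10 against 14.8%.

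The interaction asks whether the genotype difference was itself changed by ATRA. EdgeR called 0 of 10 subunits and 0% of all genes. At an unadjusted p under 0.05 it was 1 of 10 subunits and 1868 of 19130 tested genes. DESeq2 and limma-voom called 0 of 10 subunits, and 12 and 0 genes over the table. DPY30 had an interaction of 1.04 ± 0.54 (edgeR adjusted p = 0.536) and ASH2L one of 0.69 ± 0.30 (edgeR adjusted p = 0.509). The call of ASH2L in untreated cells and its value near 0 with ATRA are therefore not shown to differ.

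Replicate spread was uneven. Within untreated CT cells the highest SETD1B library was 6.37 times the lowest, KMT2D 3.13 times and DPY30 2.85 times, while within untreated KO cells these ratios were 1.41, 1.29 and 1.8. MEN1, ASH2L and RBBP5 were steadier in untreated CT cells, at 1.33, 1.41 and 1.41 times. Untreated CT 2, which set the low end for the 4 enzymes, WDR5, RBBP5, MEN1 and CXXC1 and the high end for DPY30, also had the highest share of mitochondrial counts, 8.19% against 3.61% to 6.43% in the other libraries. The part of this in the subunit levels was not tested.

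Correlations between subunits across the 12 libraries are given as a description, because the points share library composition and GC tilt. KMT2D, SETD1A, SETD1B and WDR5 had Pearson correlations of log2(CPM + 0.5) from 0.90 to 0.95 with each other. CXXC1 had 0.80 to 0.89 with these 4 and 0.88 with MEN1, and MEN1 had 0.60 to 0.79 with the 4. RBBP5 had 0.76 with ASH2L and 0.66 with DPY30. DPY30 ran against SETD1A at -0.83, and KMT2A reached at most 0.40, with KMT2D. DPY30 and WDR5, partners in every complex, had -0.75.

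**Figure D4:**
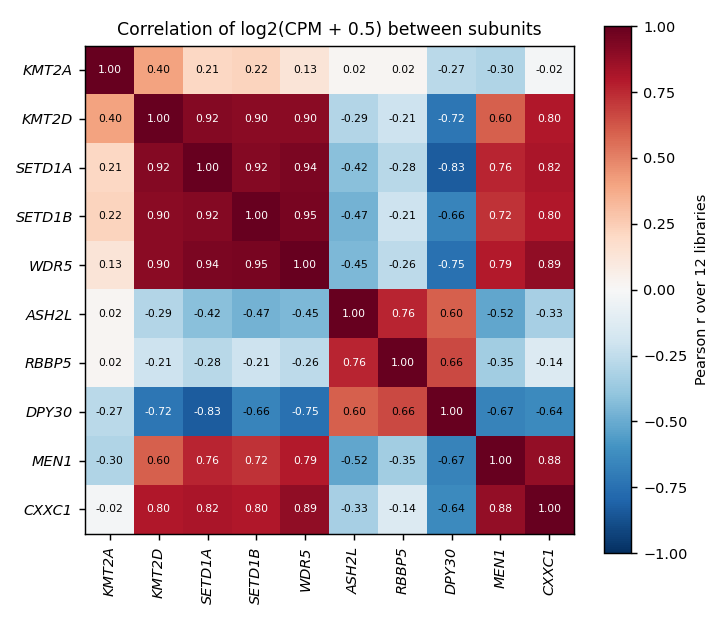
Pearson correlation of log2(CPM + 0.5) between each pair of subunits over the 12 libraries, from -1 (blue) to 1 (red). KMT2D, SETD1A, SETD1B and WDR5 form a block at 0.90 to 0.95, and DPY30 has negative values with them, -0.83 with SETD1A.

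Among 10966 genes of at least 5 CPM on average, the patterns most like DPY30 were those of CNBP and ATXN10, both at a Pearson r of 0.980 over the 12 libraries. For ASH2L they were OAT (0.920) and PRKX (0.894), for RBBP5 they were RBM17 (0.979) and STX6 (0.975), and for KMT2A they were FAT1 (0.937) and MACF1 (0.912). WDR5 was most like ABCF2 (0.993) and PRPF19 (0.992), and CXXC1 most like RANGAP1 (0.990) and ABCF3 (0.971). Each is among the highest of 10966 values over the same 12 libraries. The points share library composition and GC tilt, so these values too are a description only.

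Other genes of H3K4 methylation were followed as lists, each read against 26.8% of all tested genes lower and 17.1% higher in the averaged comparison. Of 12 other subunits of the COMPASS family 4 fell and 0 rose, with a median log2 fold change of -0.36 against -0.08 over all genes. PSIP1, a chromatin tether that works with MEN1 and KMT2A, averaged 76.8 ± 13.2 CPM in KO cells and 185 ± 97 CPM in CT cells (SD, n = 6 each), a log2 fold change of -1.22 ± 0.29 (edgeR adjusted p = 0.00547). KDM6A, the H3K27 demethylase in the KMT2C and KMT2D complexes, averaged 17.4 ± 2.18 CPM in KO cells and 28.9 ± 9.31 CPM in CT cells (SD, n = 6 each), a log2 fold change of -0.71 ± 0.19 (edgeR adjusted p = 0.00933). PAXIP1 (-0.58) and BOD1L1 (-0.94) fell too, and were singled out after their values were seen. With the GC trend removed edgeR called 0 of the 12 in either direction, and with the near-identical libraries summed it called 2 lower, against 28.8% and 25.3% of all tested genes.

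Of 5 H3K4 demethylases, the erasers of the mark, 2 fell and 0 rose. They were KDM5A at -0.62 ± 0.22 (edgeR adjusted p = 0.0391) and KDM5B at -0.34 ± 0.13 (edgeR adjusted p = 0.0431), called under 8 and 6 of the 24 other settings. KDM1A, a flavin-dependent demethylase, had -0.19. KDM1B (0.42) and KDM5C (0.28) had positive values and were not called. With the GC trend removed 0 of the 5 was lower and 1 was higher.

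Of 4 other H3K4 methyltransferases tested 1 was called lower and 0 higher. It is the muscle enzyme SMYD1, which passed the filter on low counts only through CT libraries, so its call supports nothing and its levels are a description. SMYD1 had 0.029, 0.0293 and 0.11 CPM in KO cells with ATRA against 2, 0.156 and 9.83 CPM in CT cells with ATRA, 6 against 450 counts over each group. CT ATRA 3 held 379 of these counts. Untreated, it had 8 counts over the KO libraries against 28 over the CT libraries.

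Of 14 readers of H3K4 methylation 2 rose and 4 fell in the average, with a median of 0.27. PHF2, a demethylase whose PHD finger binds trimethylated H3K4, stood at 62.8, 63.3 and 47.6 CPM in untreated KO cells against 31.1, 18.6 and 25.2 CPM in untreated CT cells. With ATRA it stood at 62, 54.6 and 60.8 CPM in KO cells against 31.8, 19.1 and 33.7 CPM in CT cells. Each KO library was above each CT library, and the averaged log2 fold change was 1.14 ± 0.18 (edgeR adjusted p = 0.000987).

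ING4, which links trimethylated H3K4 to a histone acetyltransferase, stood at 148, 139 and 93.7 CPM in untreated KO cells against 48.7, 63.9 and 46 CPM in untreated CT cells, and with ATRA at 155, 117 and 152 CPM in KO cells against 90.6, 38.1 and 64.3 CPM in CT cells. It too had no overlap, with an averaged log2 fold change of 1.20 ± 0.21 (edgeR adjusted p = 0.00149). Both readers were called in the average under all 24 other settings, the removal of the GC trend included. SPIN1 (-0.60 ± 0.12, edgeR adjusted p = 0.00256) and ING2 (-0.99 ± 0.22, edgeR adjusted p = 0.00409) fell, as did CHD1 (-1.35) and BPTF (-0.74), a remodeller each, which were singled out after their values were seen. With the GC trend removed 3 of the 14 readers were higher and 0 lower.

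Ubiquitin on histone H2B is needed for full H3K4 methylation by COMPASS, and the PAF1 complex recruits the ligase. Of 11 genes of this pathway 7 fell and 2 rose in the average, with a median log2 fold change of -0.49. WAC, the adaptor of the ligase, averaged 49.2 ± 4.12 CPM in KO cells and 103 ± 37.7 CPM in CT cells (SD, n = 6 each), a log2 fold change of -1.04 ± 0.20 (edgeR adjusted p = 0.00228). CDC73, a PAF1 complex subunit, averaged 18.6 ± 3.29 CPM in KO cells and 37.7 ± 11.2 CPM in CT cells (SD, n = 6 each), a log2 fold change of -1.02 ± 0.22 (edgeR adjusted p = 0.00376).

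The ligase partners RNF20 and RNF40 went opposite ways, at -0.79 (edgeR adjusted p = 0.0494) for RNF20, singled out after its value was seen, and 0.92 ± 0.26 (edgeR adjusted p = 0.0144) for RNF40. PAF1 itself rose at 0.70 ± 0.24 (edgeR adjusted p = 0.0306). With the GC trend removed, 1 of the 11 was higher and 1 lower, neither of them WAC, CDC73, RNF40 or PAF1. WAC was then at -0.31 (edgeR adjusted p = 0.0654) and CDC73 at -0.10 (edgeR adjusted p = 0.6). RNF40 was at 0.67 (edgeR adjusted p = 0.0651) and PAF1 at 0.40 (edgeR adjusted p = 0.147). With the near-identical libraries summed 1 was higher and 2 were lower. This list had a median GC content of 44%, against 58.5% for the 10 subunits.

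**Figure D5:**
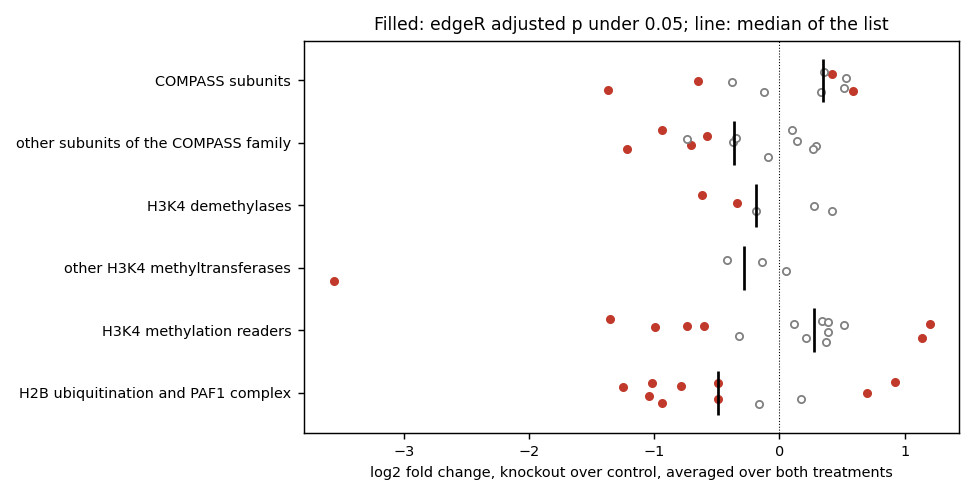
Averaged log2 fold change, knockout over control, of every tested gene in the 6 lists; filled points passed an edgeR adjusted p under 0.05 and the black line is the median of the list. Of the H2B ubiquitination and PAF1 genes 7 filled points lie left of 0 and 2 right of it, and SMYD1, tested only through its CT counts, lies farthest left at -3.56.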

How the data were processed

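Libraries of NT2/D1 RNA were made with a kit that keeps strand, per the labels' protocols. The authors deposited raw whole-number counts for each gene in each library, beside a gene length. Per the submitters' processing notes the tools were bcl2fastq, TopHat2, Subread, featureCounts and DESeq2 on hg19 and GRCh37. Tool versions, the gene annotation, strandedness of the counting and the treatment of multiply matching reads were not given in the sources used here.

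From the counts, genes were kept with filterByExpr (minimum count 10), libraries were scaled by TMM, and edgeR 4.0.16 under R 4.3.3 fitted 1 coefficient per group over all 12 libraries. Its quasi-likelihood F-test gave 6 comparisons, with Benjamini-Hochberg adjustment over 19130 genes and calls at an adjusted p under 0.05. This holds for each edgeR adjusted p printed. Library totals of 25469881 to 60394918 counts put 3 counts at 0.128 to 0.0433 CPM, which covers counting error only. The fitting script was tested on simulated data. The members, lists and rules were chosen with earlier results of these data known.

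Named genes are the 10 members, PRMT6, up to 2 called genes of smallest adjusted p per direction of each other list in each genotype comparison, and the 2 genes most correlated with each member (at least 5 CPM on average), of which some are printed. SGF29 and SKIC8 are in the table as CCDC101 and WDR61. GC content was summed over GENCODE v44 transcripts (GRCh38) matched by symbol, for 85.4% of tested genes. In the GC setting a spline of 4 degrees of freedom on GC was removed from each library as an offset. Other settings used RLE scaling, DESeq2 1.42.0, limma-voom (limma 3.58.1), no filter or a stricter one, the compared groups alone, a replicate block, a length trend, summed near-identical libraries, or left out libraries.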

Additional observations from a re-analysis of the deposited data

How the results depend on the processing

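Beside the fit reported, each result was recomputed under 13 other settings (12 for the average and the interaction) and 12 fits that each left out 1 library. Over the 10 subunits and 6 comparisons, 1394 of the recomputed values kept their side of the threshold and their direction where called, 50 lost a call and 36 gained one, and no called value changed sign.

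In untreated cells 2 subunits were called, and 4 were called with DESeq2, limma-voom, no filter or the length trend removed, 1 with the compared groups only, the GC trend removed or the replicate block with the GC trend removed, and 0 with near-identical libraries summed (DPY30 then had an edgeR adjusted p of 0.0538, and 1072 genes were still called over the table). Leaving out 1 library gave 1 to 7, against 3058 to 8453 genes. In the average 4 were called, against 8391 genes. It was 2 with the replicate block (7672 genes) or without CT untreated 2 and CT ATRA 2 (8090 genes). It was 1 with the GC trend removed (5519 genes), with the replicate block and the GC trend removed (4729), or with near-identical libraries summed (4997). Leaving out 1 library gave 1 to 8, against 6760 to 9606 genes. The highest subunit counts came without untreated CT 1, and the lowest in the average without KO ATRA 1, KO ATRA 3 or untreated KO 2. For ATRA against no treatment, 0 subunits were called in CT cells and 0 to 2 without 1 library. It was 1 without CT ATRA 2, against 2419 genes, and 2 without untreated CT 1, against 2457 genes. In KO cells it was 0, but 1 (KMT2A) with the compared groups only, against 1336 genes. The cause of these moves was not tested, beyond the fewer libraries in the fits that leave some out or sum them.

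Same-numbered replicates did not vary together as a rule (correlations of -0.485 to 0.393), so the numbers are not taken as pairs. Among untreated KO libraries, KO ATRA 1 and KO ATRA 3 were most like untreated KO 1, and KO ATRA 2 most like untreated KO 3. A link between libraries under other numbers was not tested. The replicate block called 761 genes with ATRA against 1437 without it, 4 against 22 for ATRA in CT cells and 0 against 6 in KO cells. Over all genes, the untreated count of 6676 became 3156 with the GC trend removed, 2475 with the block too (1185 of these higher, against 2480 of 6676), 1072 with libraries summed, and 3058 to 3788 without untreated KO 1, KO 2 or CT 3. The count of 1437 with ATRA ran from 71 (libraries summed) to 2964 (DESeq2), with 2317 unfiltered, 768 for the compared groups only, 806 with block and GC, 881 without KO untreated 3 and KO ATRA 2, and 219 to 843 without any of 6 single libraries. The averaged count of 8391 became 5519 with the GC trend removed, 4729 with block and GC, and 4997 with libraries summed. ATRA counts ranged from 0 to 2457 in CT cells (22 reported) and from 0 to 1336 in KO cells (6 reported), and interaction counts from 0 to 135. The median log2 fold change of all genes stayed between -0.15 and 0.01 over all genotype fits.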
